A study of Homo sapiens with 65 samples.

Results

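Expression of 8 genes of the cardiac thick filament, with its light chain kinase, was followed across cardioids, heart-like aggregates grown from human pluripotent stem cells. They are the heavy chains MYH6 and MYH7, the essential light chains MYL3 and MYL4, the regulatory light chains MYL2 and MYL7, cardiac myosin binding protein C (MYBPC3) and the cardiac myosin light chain kinase (MYLK3). The 8 genes were chosen by name, and all 8 were present among the 58735 genes of the deposited count table. Their values are given as CPM (reads assigned to a gene per 1000000 assigned reads of the library).

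Myosin of heart muscle is a hexamer of a pair of heavy chains, which hydrolyse ATP and pull on actin, and of essential and regulatory light chains that stabilise the lever arm and tune it. The heart uses several isoforms of each. MYH6 (alpha) is the fast heavy chain and MYH7 (beta) the slow chain that predominates in the human ventricle. MYL4 and MYL7 are the atrial light chains and are also made in the early embryonic ventricle, whereas MYL3 and MYL2 are the ventricular ones, and MYL2 is widely read as a sign of ventricular maturation. MYBPC3 lies along the thick filament and restrains the heavy chain heads. MYLK3 phosphorylates the regulatory light chain.

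The cardioids were made by the left-ventricular protocol from WTC-11, a line of induced pluripotent stem cells, and 8 cardioids were pooled for each of the 65 libraries. In the genotype arm (41 libraries), wild-type cells (WT; line names WT, WT_TU, cl43_WT_UT and TNT2) were compared with cells labelled HAS2 knockout (KO; clones cl4, cl14, cl46 and cl51), day by day: 5 WT and 6 KO libraries for day 1.5, 6 of each for days 2.5 and 4.5, and 3 of each for day 7.5. HAS2 encodes a synthase of hyaluronan, a sugar polymer of the extracellular matrix. In the enzyme arm (24 libraries, 3 per group), untreated cardioids were compared with cardioids given hyaluronidase, which digests the polymer, from day 1.5 (HAse1.5; libraries of days 2.5, 4.5 and 7.5) or only from day 2.5 (HAse2.5; libraries of days 4.5 and 7.5). Replicates 1, 2 and 3 of that arm carry the line names TNNI1, WT and TNNT2 and no HAS2 knockout. Some KO libraries are repeats of 1 clone (cl4), and some WT libraries are repeats of the lines WT and WT_TU. At day 7.5 all WT libraries came from WT and WT_TU and all KO libraries from cl4 and cl14. The p-values, those of the permutation tests included, measure the spread between libraries and treat such repeats as independent. Both enzyme groups share the untreated libraries.

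Total counts ranged from 831062 to 3574843 per library (median 1570954). HAS2 itself did not separate the labels: at day 4.5 it ranged from 149.6 to 481.7 CPM in WT and from 286.0 to 485.5 CPM in KO libraries, and 3′ reads cannot show whether its coding sequence was cut. Cardiomyocyte genes came on at different days: titin TTN already had 218.1 to 2637 CPM in WT at day 2.5. TNNT2, cardiac troponin T, had at most 9.34 CPM there and reached 3505 to 6586 CPM in WT at day 4.5. The skeletal muscle regulators MYOD1, MYOG and MYF5 were at 0 in all groups of days 4.5 and 7.5. The skeletal muscle marker MYH3 was called lower in WT at day 2.5 than at day 1.5 (log2 fold change -1.46, edgeR adjusted p = 0.0171). It was called higher at day 4.5 than at day 2.5 (1.41, edgeR adjusted p = 0.0154). The marker PAX7 was called higher in KO at day 2.5 (edgeR adjusted p = 0.0482). In bulk libraries fewer cardiomyocytes and less RNA per cardiomyocyte cannot be told apart. Libraries that stood apart were WT cl43_WT_UT at day 4.5, the lowest WT library for 6 of the 7 members detected there, and KO cl46_R1 and cl51_R1 at day 4.5, the 2 lowest KO libraries for all 7.

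The heavy chain genes lie side by side on the minus strand of chromosome 14 (GRCh38, GENCODE 29), MYH6 (ENSG00000197616) at 23381990 to 23408277 and MYH7 (ENSG00000092054) at 23412738 to 23435718. They are near-identical in parts, and how reads matching both were counted is not given in the sources used here, so their split is uncertain. MYL3 (ENSG00000160808) lies on chromosome 3 at 46857872 to 46882169 and overlaps PTH1R on the opposite strand, which reached at most 168.7 CPM. MYL4 (ENSG00000198336) lies on chromosome 17 at 47200446 to 47223679, MYL7 (ENSG00000106631) on chromosome 7 at 44138864 to 44141332, and MYL2 (ENSG00000111245) on chromosome 12 at 110910819 to 110920722. MYBPC3 (ENSG00000134571) lies on chromosome 11 at 47331397 to 47352702 and MYLK3 (ENSG00000140795) on chromosome 16 at 46703369 to 46790407. MYLK3 overlaps a pseudogene that reached at most 3.58 CPM.

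Promoter sequences were taken from RefSeq (GRCh38.p14) for 5 of the 8 members. The 250 bases before the start of 4 of them are shown because MYL7 and MYL3 had the lowest fold changes at day 4.5 in KO and in HAse1.5, below those of MYBPC3 and MYH6; MYH7, MYL2 and MYL4 are named only. All 4 are on the minus strand and are printed 5′ to 3′ in the direction of the gene, with capitals marking matches to 4 motifs searched on both strands: MEF2 (the site of the MEF2 factors), CArG (the site of serum response factor), GGAATG (a TEAD factor site) and, for the GATA factors, TGATAA or AGATAA. The GATA spellings TGATAG and AGATAG were not searched.
MYL7 chr7:44141333-44141582: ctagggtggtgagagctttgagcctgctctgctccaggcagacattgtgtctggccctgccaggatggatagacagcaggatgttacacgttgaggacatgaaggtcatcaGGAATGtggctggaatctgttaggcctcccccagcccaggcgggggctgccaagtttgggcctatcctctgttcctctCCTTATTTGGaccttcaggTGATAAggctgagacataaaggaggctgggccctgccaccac
MYL3 chr3:46861685-46861934: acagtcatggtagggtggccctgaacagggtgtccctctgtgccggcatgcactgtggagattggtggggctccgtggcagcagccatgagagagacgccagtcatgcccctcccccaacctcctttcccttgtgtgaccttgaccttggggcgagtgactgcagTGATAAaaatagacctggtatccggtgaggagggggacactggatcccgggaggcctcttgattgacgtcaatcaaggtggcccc
MYBPC3 chr11:47352703-47352952: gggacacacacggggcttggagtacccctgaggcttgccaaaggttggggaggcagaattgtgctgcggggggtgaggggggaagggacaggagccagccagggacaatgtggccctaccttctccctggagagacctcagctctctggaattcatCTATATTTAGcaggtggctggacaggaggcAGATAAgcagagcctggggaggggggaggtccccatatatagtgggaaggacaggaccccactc
MYH6 chr14:23408274-23408523: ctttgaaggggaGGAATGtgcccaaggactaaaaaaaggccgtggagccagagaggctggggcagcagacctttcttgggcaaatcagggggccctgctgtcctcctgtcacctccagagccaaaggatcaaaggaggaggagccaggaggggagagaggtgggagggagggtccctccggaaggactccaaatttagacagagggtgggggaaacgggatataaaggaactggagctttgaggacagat
The MYL7 window held a CArG match (CCTTATTTGG, 61 to 52 bases before the start), TGATAA at 42 to 37 bases and GGAATG at 139 to 134 bases. The MYL3 window, at the inner of its 2 listed starts, held TGATAA at 85 to 80 bases. The MYBPC3 window held a MEF2 match (CTATATTTAG, 94 to 85 bases) and AGATAA at 64 to 59 bases, and the MYH6 window held GGAATG at 238 to 233 bases. MYLK3, the member with promoters that is not shown, held AGATAA at 49 to 44 bases and GGAATG at 143 to 138 bases in its window chr16:46748345-46748594. Its other window (chr16:46763247-46763496) and the outer MYL3 window (chr3:46882183-46882432) held no match. Of 35116 promoter windows of the same length, 1.16% held a CArG match, 2.8% a MEF2 match, 14.6% at least 1 of the 2 GATA spellings and 11.9% GGAATG. A match describes the letters and is not evidence of binding.

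The members came on in steps during wild-type differentiation. At day 1.5 MYL7 was already counted, at 8.95 to 26.8 CPM in the 5 WT libraries, whereas MYH7, MYL2 and MYL3 were at 0 in all 5 and MYH6, MYBPC3 and MYLK3 had 3 counts or fewer in each. MYLK3 was the first to reach a high level: it rose from at most 1.55 CPM at day 1.5 to between 166.6 and 267.9 CPM at day 2.5, at least 171-fold above the floor of 3 counts per library (log2 fold change 7.63 with SE 0.34, adjusted p = 3.83e-20 by the quasi-likelihood test of edgeR). The kinase was thus abundant at a day when the troponin TNNT2 had at most 9.34 CPM in WT, while titin TTN had 218.1 to 2637 CPM. MYL4 rose from at most 2.58 CPM to between 25.3 and 102 CPM (log2 fold change 5.59, SE 0.51, edgeR adjusted p = 2.06e-11), and MYL7 to between 51.6 and 136 CPM (log2 fold change 2.19, SE 0.45, edgeR adjusted p = 0.00022). In all, 6 of the 7 members tested rose between days 1.5 and 2.5, where 15% of all genes tested did. MYH6, MYL3 and MYBPC3 were among the 6 but stayed at or under 10.5 CPM in every WT library of day 2.5.

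Between days 2.5 and 4.5 all 7 members tested rose in WT, where 18.6% of genes did. MYH6 rose furthest, from at most 8.67 CPM to between 4602 and 8600 CPM (log2 fold change 11.14, SE 0.55, edgeR adjusted p = 1.12e-18). MYL3 climbed from at most 9.25 CPM to between 214.2 and 1574 CPM, and MYBPC3 from at most 10.5 CPM to between 544.5 and 1245 CPM. MYL7 ran from 1693 to 5466 CPM at day 4.5 (median 4325) and MYL4 from 999.3 to 2356 CPM (median 1973). MYLK3, already high, rose least, to between 405.4 and 579.4 CPM (log2 fold change 1.26, SE 0.21, edgeR adjusted p = 5.6e-06). MYH7 appeared for the first time, at 11.9 to 47.4 CPM, at least 16.7-fold above the floor of day 2.5, where it was at 0 in all 6 libraries.

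Between days 4.5 and 7.5 only the slow heavy chain passed the test. MYH7 had 54.4, 52.3 and 111.2 CPM in the 3 WT libraries of day 7.5, all above the 6 of day 4.5 (log2 fold change 1.53, SE 0.40, edgeR adjusted p = 0.041). This was 1 of 7 members, where 1.25% of genes rose. The call was lost without any of WT_R1, WT_TU_R1, WT_R2 or cl43_WT_UT of day 4.5 or any of the 3 libraries of day 7.5 (adjusted p 0.0551 to 0.375). MYL3 (2708 to 3370 CPM at day 7.5), MYL7 (8343 to 10062 CPM) and MYL4 (2987 to 3824 CPM) also lay above all WT libraries of day 4.5, with adjusted p of 0.137, 0.184 and 0.287 in edgeR. MYLK3 (587.1 to 732.3 CPM) was just above them too (adjusted p = 0.545), and MYH6 (8556 to 9395 CPM) and MYBPC3 (719.6 to 1122 CPM) overlapped their day 4.5 ranges.

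MYL2 was not counted in any library before day 7.5. At day 7.5 the untreated libraries of the enzyme arm had 4.46, 0.638 and 6.68 CPM, the 3 WT libraries 0, 0.698 and 1.29 CPM, the KO libraries 0.651, 0 and 0, the HAse1.5 libraries 1.63, 0 and 0, and the HAse2.5 libraries 0 CPM in all 3. The gene was too low to be tested, and only untreated replicates 1 and 3 had more than 3 counts. Against the HAse2.5 floor of 3 counts the untreated mean was at least 1.95-fold higher, and the 3 untreated libraries lay above all 3 of HAse2.5.

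**Figure D1:**
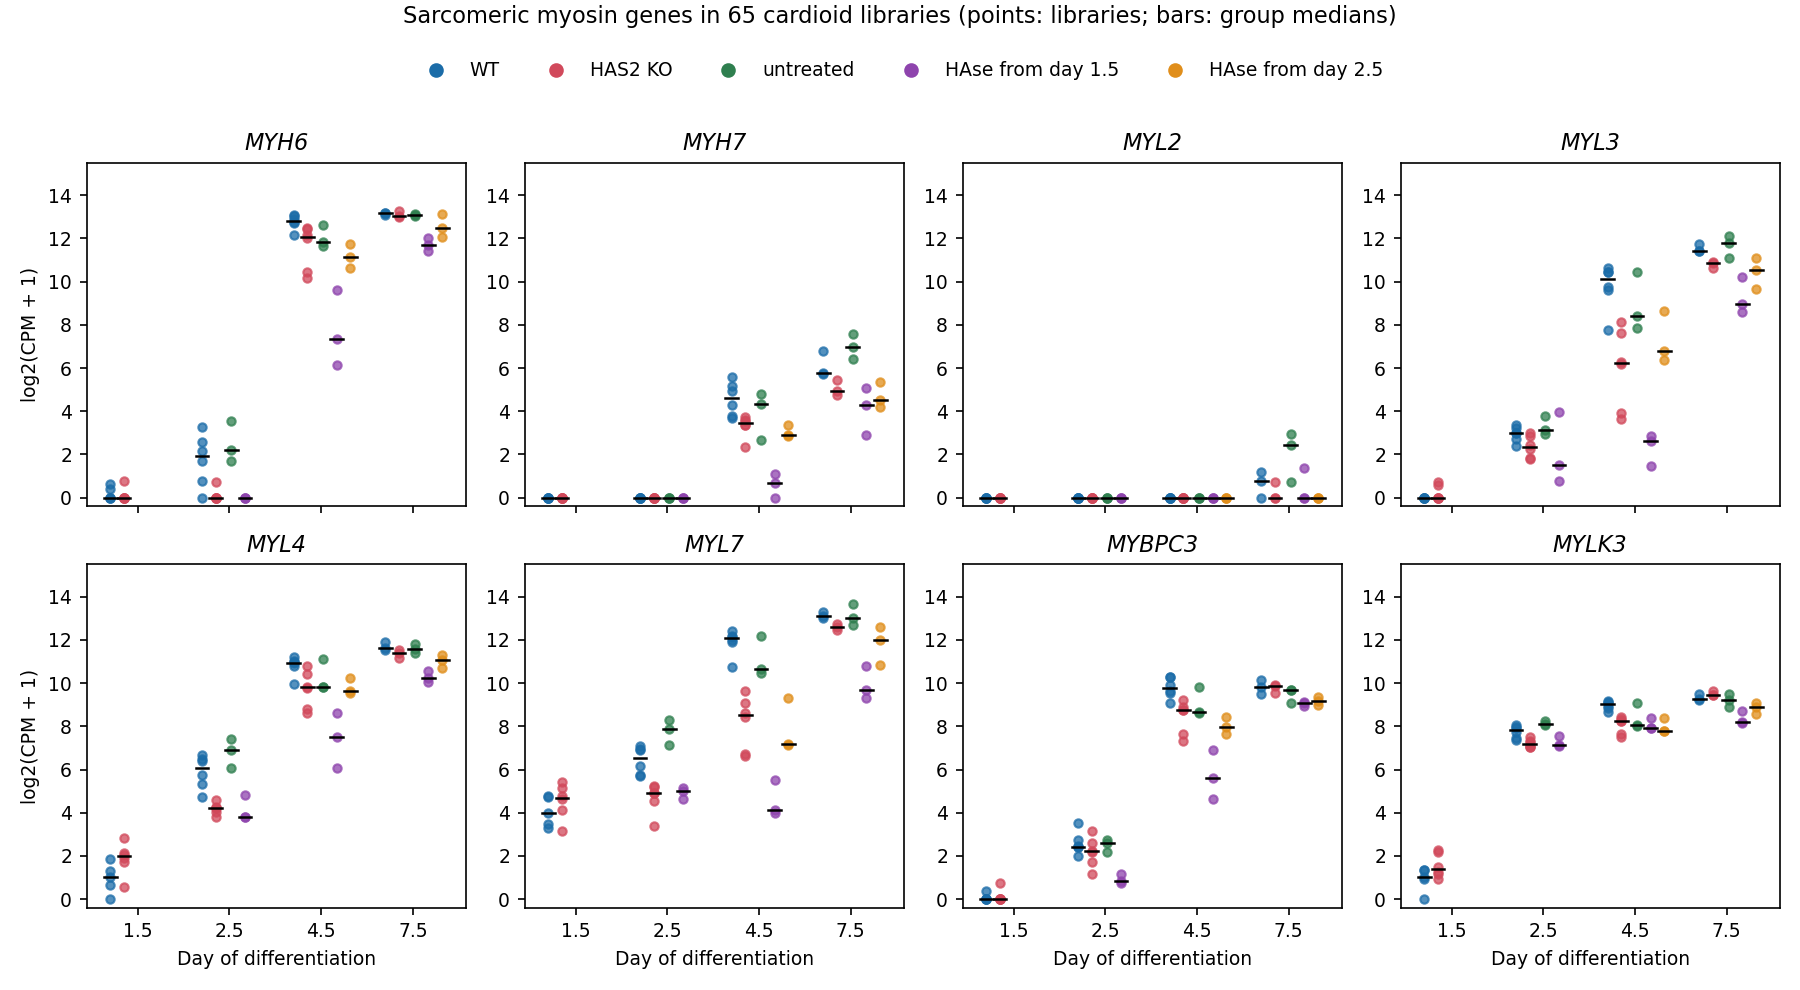
Log2(CPM + 1) of each member against day of differentiation, with 1 point per library, bars at group medians and colours for the 5 conditions. MYLK3 is high by day 2.5, MYH6, MYL3, MYL4, MYL7 and MYBPC3 by day 4.5, MYH7 stays under 190 CPM and MYL2 is near 0 throughout; at day 4.5 the HAse1.5 points lie lowest for MYL7 and MYL3, and for MYL7 the KO and HAse2.5 points (99.1 to 788.7 and 141.0 to 633.3 CPM) lie between them and the WT points.

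In HAS2 knockout cardioids 5 of the 7 members tested were lower than in wild type at day 4.5, with the lowest fold changes in the light chains MYL7 and MYL3, and none was called at day 7.5. At day 1.5 none of the 7 members tested differed between KO and WT by edgeR or DESeq2 (2 had an unadjusted p under 0.05 in edgeR), where 0% of all genes did (591 of 13797 at an unadjusted p under 0.05). At day 2.5, 3 of 7 were lower, where 0.5% of genes were. MYL4 had 12.8 to 23.3 CPM in the 6 KO libraries (median 17.8) and 25.3 to 102 CPM in the 6 WT libraries (median 67.8), and the groups did not overlap (log2 fold change -1.94, SE 0.36, edgeR adjusted p = 0.00225). MYL7 had 9.57 to 36.3 CPM in KO (median 29.1) and 51.6 to 136 CPM in WT (median 93.8), again without overlap (log2 fold change -1.81, SE 0.42, edgeR adjusted p = 0.0186). Both atrial-type light chains thus stayed in KO at day 2.5 below every WT library. MYH6 had at most 1 count in any KO library and 0 to 8.67 CPM in WT, which overlapped but had a mean at least 1.61-fold higher (edgeR adjusted p = 0.0213). MYLK3 had 129.2 to 182.9 CPM in KO and 166.6 to 267.9 CPM in WT (log2 fold change -0.60, SE 0.21, edgeR adjusted p = 0.192), and MYL3 and MYBPC3 overlapped between the groups. Without WT cl43_WT_UT only MYL4 was called, and MYL7 (adjusted p 0.0511 to 0.0628) was also lost without WT_R1, TNT2 or KO cl46_R1, as was MYH6 (0.0544 to 0.0685) without KO cl4_R2, cl4_R3 or cl14_R1. With the library-number block as a term MYH6 was not called (adjusted p = 0.076). MYL7 and MYH6 also lost their calls without the libraries numbered first (block A, edgeR adjusted p = 0.0842 and 0.233). Within the last block of library numbers alone (block C) both were lost too (0.185 and 0.382), and MYL4 kept its call in each. MYLK3 was called by DESeq2 (adjusted p = 0.0375) and without block A (-0.61, edgeR adjusted p = 0.0408).

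At day 4.5, 5 of the 7 members tested were lower in KO, where 2.6% of all genes were, and their median log2 fold change was -1.34 against -0.03 over all genes. MYL7 had 99.1, 105.4, 345.9, 397.9, 545.0 and 788.7 CPM in the KO libraries and 1693 to 5466 CPM in WT. The highest KO library lay below the lowest WT library, and the KO mean was 10.6-fold lower (log2 fold change -3.45, SE 0.42, edgeR adjusted p = 9.57e-07). MYL3 had 11.6, 14.0, 71.2, 76.2, 195.5 and 281.3 CPM in KO and 214.2 to 1574 CPM in WT, so that only KO cl4_R1 reached above the low WT library cl43_WT_UT (log2 fold change -3.30, SE 0.50, edgeR adjusted p = 5.68e-05). KO cl46_R1 and cl51_R1 were the lowest for both light chains. Without either of them, without cl43_WT_UT or without the libraries numbered first (block A), MYL7 was at -3.25 to -3.76 and MYL3 at -3.06 to -3.54, all still called.

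The other members had smaller fold changes at day 4.5, and 3 of them passed. MYBPC3 had 161.6 to 597.2 CPM in KO (median 427.5) and 544.5 to 1245 CPM in WT (median 885.7), with a small overlap (log2 fold change -1.34, SE 0.28, edgeR adjusted p = 0.00368). MYLK3 had 183.1 to 348.9 CPM in KO (median 302.6) and 405.4 to 579.4 CPM in WT (median 520.4), without overlap (log2 fold change -0.94, SE 0.21, edgeR adjusted p = 0.00519). MYH7 had 4.05 to 12.1 CPM in KO and 11.9 to 47.4 CPM in WT (log2 fold change -1.5, SE 0.37, edgeR adjusted p = 0.0252). For these the groups touched at most at their edges. MYH6 (1141 to 5785 CPM in KO, 4602 to 8600 CPM in WT; log2 fold change -0.98, SE 0.35, edgeR adjusted p = 0.106) and MYL4 (388.6 to 1797 CPM in KO, 999.3 to 2356 CPM in WT; -1.0, SE 0.32, adjusted p = 0.0717) did not pass. The MYH7 call was lost without WT_TU_R2, TNT2, cl46_R1 or cl51_R1 (adjusted p 0.0542 to 0.0742), and MYL4 was called without cl4_R1 (-1.30, adjusted p = 0.0145) or cl43_WT_UT (-1.14, 0.0279). Within the last block of library numbers alone (2 WT and 4 KO libraries, block C) MYL7 (-3.77, adjusted p = 0.00888), MYL3 (-3.74, 0.0115) and MYLK3 (-1.01, 0.0102) were called and MYH7 and MYBPC3 were not.

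At day 7.5 no member was called by edgeR or DESeq2 (1 of 7 had an unadjusted p under 0.05 in edgeR), where 0.348% of genes were called in either direction (763 of 13797 at an unadjusted p under 0.05). MYL7 had 6162, 6792 and 5593 CPM in KO and 10062, 8343 and 8856 CPM in WT, and MYL3 had 1914, 1861 and 1584 CPM against 3370, 2760 and 2708 CPM. For MYL7, MYL3, MYL4 and MYH7 all 3 KO libraries still lay below all 3 WT libraries. The share of all genes that lay apart in this way was not counted, so no effect is read from it. The largest difference was that of MYH7, with 29.3, 42.0 and 25.9 CPM in KO and 54.4, 52.3 and 111.2 CPM in WT (log2 fold change -1.19, 95% interval -2.20 to -0.19, edgeR adjusted p = 0.725), and MYL7 was at -0.59 (interval -1.70 to 0.51). In a fit of these 6 libraries alone MYH7, MYL3 and MYL7 were called (adjusted p = 0.0408, 0.008 and 0.0375). WT libraries of day 7.5 came from the first 2 blocks of library numbers (A and B) and KO libraries from the last 2 of the 3 blocks, so block and genotype were partly confounded there. MYH6, MYBPC3 and MYLK3 overlapped, with log2 fold changes of -0.07, -0.10 and 0.14. The KO libraries of day 7.5 were cl4_R2, cl4_R3 and cl14_R1, without the clones cl46 and cl51 that were lowest at day 4.5. The WT libraries of day 7.5 lacked the lines cl43_WT_UT and TNT2. Changes of the KO effect between these days therefore mix day with the set of lines. The KO effect on MYL7 was 2.86 log2 units smaller in size at day 7.5 than at day 4.5 (SE 0.69), and that on MYL3 2.54 units (SE 0.80), but neither change passed over all genes (edgeR adjusted p = 0.0812 and 0.487; 0 members called, 4 at an unadjusted p under 0.05, 1 by DESeq2). With the library-number block as a term, MYL3 (3.32, adjusted p = 0.0103), MYL7 (3.05, 0.0192) and MYBPC3 (1.46, 0.0325) were called. MYL7 was also called without KO cl4_R1 (3.24, adjusted p = 0.0161) or WT cl43_WT_UT (3.03, 0.038) of day 4.5.

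With hyaluronidase from day 1.5 the atrial light chain MYL4 was lower at day 2.5, 6 members at day 4.5 and 2 at day 7.5. At day 2.5 MYL4 had 13.0, 27.2 and 13.1 CPM in HAse1.5 and 65.4, 120.7 and 171.0 CPM in untreated libraries (log2 fold change -2.80, SE 0.58, edgeR adjusted p = 0.0176). It was the 1 member of 7 called, where 0.894% of genes were lower, and the call was lost without HAse1.5 replicate 1 or 3 or untreated replicate 3 (adjusted p 0.112 to 0.142). MYL7 had 30.9, 34.4 and 23.7 CPM against 141.5, 237.0 and 316.8 CPM, groups far apart but with an adjusted p of 0.0612 in edgeR (0.00357 in DESeq2). MYH6 was at 0 in all 3 HAse1.5 libraries and at 2.24 to 10.7 CPM in the untreated ones. MYLK3 had 136.8 to 186.9 CPM against 266.5 to 305.6 CPM (log2 fold change -0.90, SE 0.28, edgeR adjusted p = 0.143).

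At day 4.5, 6 of the 7 members were lower in HAse1.5, where 2.41% of genes were, and their median log2 fold change was -3.78 against 0.02 over all genes. MYL7 had 16.8, 44.9 and 15.1 CPM in HAse1.5 and 4688, 1409 and 1590 CPM in untreated libraries, a mean 100.1-fold lower (log2 fold change -6.78, SE 0.85, edgeR adjusted p = 0.000193). Its HAse1.5 level at day 4.5 was of the order of the 8.95 to 26.8 CPM seen in WT at day 1.5. MYL3 had 6.21, 5.19 and 1.75 CPM against 1384, 229.1 and 336.6 CPM, a mean 148.4-fold lower (log2 fold change -7.32, SE 1.06, edgeR adjusted p = 0.00068). MYH6 had 69.5, 770.1 and 161.8 CPM against 6218, 3654 and 3164 CPM (log2 fold change -3.78, SE 0.68, edgeR adjusted p = 0.00433). All 3 genes were apart between the groups, and replicate 2 of HAse1.5 was the highest treated library for MYL7 and MYH6. MYBPC3 fell from 395.2 to 904.2 CPM in untreated libraries to 23.6 to 120.1 CPM (log2 fold change -3.27, SE 0.42, edgeR adjusted p = 0.000141). MYL4 fell from 897.8 to 2209 CPM to 65.8 to 391.5 CPM (-2.74, SE 0.52, edgeR adjusted p = 0.00417). MYH7 had at most 2 counts in a HAse1.5 library and 5.33 to 26.4 CPM untreated, a mean at least 8.20-fold higher (edgeR adjusted p = 0.00433). The kinase MYLK3 was the exception, with 238.9, 329.3 and 245.0 CPM against 543.2, 255.8 and 263.6 CPM (log2 fold change -0.48, 95% interval -1.03 to 0.08, edgeR adjusted p = 0.487). In a fit of only these 6 libraries MYL7 alone was called (adjusted p = 0.0234), and MYH7 was too low there to be tested.

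By day 7.5 the HAse1.5 levels had climbed, and 2 of 7 members, MYH7 and MYL7, were called lower, where 1.92% of genes were. MYL7 had 639.8, 810.4 and 1784 CPM in HAse1.5 and 6648, 8168 and 13105 CPM in untreated libraries (log2 fold change -3.22, SE 0.69, edgeR adjusted p = 0.014). MYH7 had 18.7, 6.47 and 32.8 CPM against 123.1, 85.5 and 189.2 CPM (log2 fold change -2.89, SE 0.52, edgeR adjusted p = 0.00404). Every treated library was below every untreated library for both. The MYL7 call was lost without HAse1.5 replicate 1 or 2 or untreated replicate 3 (adjusted p 0.0618 to 0.098). MYL3 (380.4 to 1187 CPM against 2182 to 4361 CPM), MYL4, MYH6 and MYLK3 were also apart between the groups, with edgeR adjusted p of 0.092, 0.13, 0.238 and 0.0526. How many of all genes were apart was not counted. With the line as a block MYLK3 passed as well (-0.92, adjusted p = 0.0424), making 3 of 7, and it did in DESeq2 (adjusted p = 0.0184). In a fit of only the 6 libraries 5 of 7 were called. MYBPC3 overlapped, at 487.5 to 551.8 CPM against 540.7 to 820.5 CPM (log2 fold change -0.57).

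When hyaluronidase was started at day 2.5 instead, no member was called at day 4.5 by edgeR (3 of 7 at an unadjusted p under 0.05; 1 by DESeq2, MYL7), where 0.22% of genes were called in either direction (895 of 12748 at an unadjusted p under 0.05). MYL7 was the member furthest from untreated, with 633.3, 143.6 and 141.0 CPM against 4688, 1409 and 1590 CPM (log2 fold change -3.10, SE 0.69, edgeR adjusted p = 0.0785). All 3 treated libraries were lower, and without HAse2.5 replicate 1 the call was made (-4.21, adjusted p = 0.0323). MYBPC3 was the other member whose groups were apart (201.9 to 342.1 CPM against 395.2 to 904.2 CPM; log2 fold change -1.14, edgeR adjusted p = 0.329). At day 7.5 MYH7 alone was lower, with 40.1, 17.4 and 22.3 CPM against 123.1, 85.5 and 189.2 CPM (log2 fold change -2.37, SE 0.51, edgeR adjusted p = 0.0385), 1 of 7 members where 0.314% of genes were lower. The call was lost without untreated replicate 1 or 3 or any HAse2.5 library (adjusted p 0.0503 to 0.212). MYL7 (1808 to 6197 CPM), MYL3 (814.6 to 2165 CPM) and MYL4 (1668 to 2514 CPM) lay below all untreated libraries of day 7.5 and did not pass. The share of all genes lying apart was not counted here either.

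Start at day 1.5 and start at day 2.5 were compared directly at day 4.5. MYL3 (log2 fold change -5.56, SE 1.03, edgeR adjusted p = 0.0277), MYL7 (-3.68, SE 0.77, 0.0481) and MYBPC3 (-2.13, SE 0.41, 0.0241) were lower with the earlier start, 3 of 7 members where 0.275% of genes were. For MYH6, MYL4 and MYH7 the groups were also apart, with adjusted p of 0.0681, 0.069 and 0.168, and MYLK3 was at 0.03 (95% interval -0.53 to 0.59). How many of all genes were apart was not counted. No member was called without replicate 1 or 3 of HAse1.5 or replicate 1 of HAse2.5, 1 was without HAse2.5 replicate 2, and 5 were without HAse1.5 replicate 2. With the line as a block MYL7 had an adjusted p of 0.0567 and MYH7 of 0.032. At day 7.5 no member differed by edgeR or DESeq2 (1 at an unadjusted p under 0.05 in edgeR), where 0.00784% of genes did in either direction (720 of 12748 at an unadjusted p under 0.05).

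**Figure D2:**
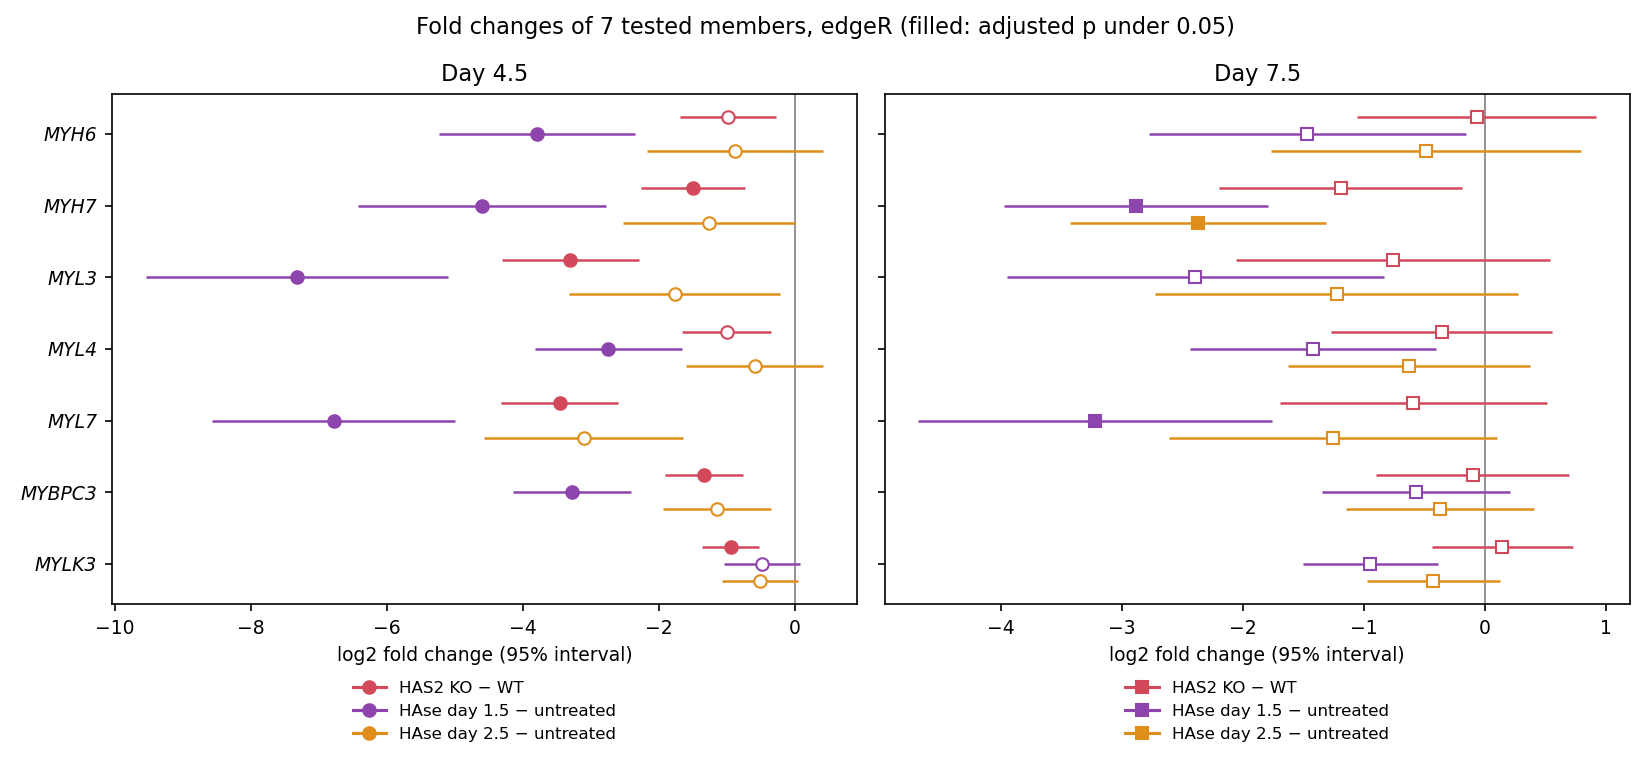
Log2 fold change of each tested member with its 95% interval for KO against WT and for each hyaluronidase group against untreated, at days 4.5 and 7.5; filled points have an edgeR adjusted p under 0.05. MYL7 and MYL3 lie furthest below 0 at day 4.5 (-3.45 and -3.30 in KO, -6.78 and -7.32 in HAse1.5), and MYLK3 lies between -0.95 and 0.14 on both days.

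The 2 ways of targeting hyaluronan were set against each other in a fit of all 65 libraries. At day 4.5 the enzyme effect was the deeper by 3.33 log2 units for MYL7 (SE 0.76, edgeR adjusted p = 0.0274) and by 2.83 for MYH6 (SE 0.66, adjusted p = 0.0331), 2 of 7 members among 38 of 14047 genes called. MYL3 (4.04, SE 1.01, edgeR adjusted p = 0.059) and MYBPC3 (1.95, SE 0.50, 0.0596) did not pass, although both did with the line or library-number block (0.0244 and 0.0052), making 4 of 7, and in DESeq2 MYL3 passed (0.0294) and MYH6 did not. For MYLK3 the difference was -0.44 (95% interval -1.14 to 0.25). The arms differ in lines and in the levels of their controls. MYL7 in untreated replicates 2 and 3 of day 4.5 was below every WT library of that day, while replicate 1 (4688 CPM) was within the WT range. At day 2.5 untreated libraries (141.5 to 316.8 CPM of MYL7) were all above WT (51.6 to 136.2 CPM). The part of the controls in the difference between the 2 effects was not tested. Both calls were lost without untreated replicate 1, HAse1.5 replicate 1 or 3, KO cl4_R1 or cl4_R2, WT_TU_R1 or cl43_WT_UT, and in a fit of only the groups compared (adjusted p = 0.164 for MYL7 and 0.257 for MYH6). The MYH6 call was also lost without untreated replicate 2, KO cl4_R3 or cl14_R1 or WT TNT2, and 4 members were called without HAse1.5 replicate 2, KO cl46_R1 or KO cl51_R1. At days 2.5 and 7.5 no member differed between the 2 effects by edgeR or DESeq2 (0 and 3 at an unadjusted p under 0.05 in edgeR). For the enzyme effect itself, no change between days 4.5 and 7.5 passed in edgeR. The HAse1.5 effect was smaller in size at day 7.5 by 4.92 log2 units for MYL3 (SE 1.26) and 3.55 for MYL7 (SE 0.98). For MYBPC3 it was smaller by 2.70 (SE 0.55) and for MYH6 by 2.32 (SE 0.87). These 4 had an unadjusted p under 0.05 in edgeR, with the lowest adjusted p 0.0953 for MYBPC3, and DESeq2 called 2 members. For HAse2.5 both counts were 0.

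Isoform balance was measured as the ratio of 2 members' counts in the same library, with 0.5 added to each count. Since 3′ reads are not scaled between genes, only changes of a ratio between libraries are read. Of 32 exact permutation tests of ratios none passed after Benjamini-Hochberg adjustment, and with 3 libraries against 3 the smallest possible p is 0.1. MYL4 to MYL3, the atrial to the ventricular essential chain, was the ratio that moved most. In WT at day 4.5 it ran from 1.27 to 4.66 (median 1.84) and in KO from 6.38 to 32.8 (median 12.1). No KO library overlapped WT, and the mean difference was 2.74 log2 units (two-sided exact permutation p = 0.00216, the smallest that 6 against 6 libraries allow, adjusted p = 0.0693). In HAse1.5 at day 4.5 the ratio was 10.1, 69.8 and 89.9, against 1.6, 2.68 and 3.91 in untreated libraries and 3.00, 6.74 and 9.73 in HAse2.5. The HAse1.5 values rest on only 10, 6 and 3 MYL3 counts, close to the floor, so their size is imprecise. By day 7.5 it was 1.10 to 1.13 in WT, 1.45 to 1.54 in KO, 0.834 to 1.23 in untreated, 1.16 to 2.05 in HAse2.5 and 1.29 to 3.13 in HAse1.5. At that day KO was apart from WT, and HAse1.5 from untreated (exact permutation p = 0.1 each), and from day 4.5 to day 7.5 the WT ratio fell by 0.87 log2 units (exact permutation p = 0.0476, adjusted p = 0.188).

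MYL7 to MYL3 overlapped between KO and WT at day 4.5: it ran from 2.78 to 8.90 in KO and from 2.88 to 7.89 in WT (difference 0.14 log2 units, exact permutation p = 0.686). At day 2.5, when MYL7 was low and MYL3 barely counted, it was 2.38 to 10.3 in KO and 5.59 to 20.1 in WT (difference -1.12 log2 units, exact permutation p = 0.0368, adjusted p = 0.188). In HAse2.5 at day 4.5 it was 1.28, 1.58 and 1.77, below the 3.39, 4.72 and 6.14 of untreated and the 2.62, 7.57 and 8.08 of HAse1.5 (exact permutation p = 0.1 each). The 3 HAse2.5 libraries thus had fewer MYL7 reads per MYL3 read than the libraries of either other group of that arm, a difference that 3 against 3 cannot pass. The HAse1.5 ratios rest on 3 to 10 MYL3 counts.

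MYH6 to MYH7 was lower at day 7.5 than at day 4.5 in medians, without passing a test. In WT it was 143 to 629 (median 264) at day 4.5 and 76.7, 169 and 178 at day 7.5 (exact permutation p = 0.0714, adjusted p = 0.188), and in untreated libraries 118 to 633 at day 4.5 and 44.4, 72.1 and 99.8 at day 7.5. At day 4.5 KO (148 to 611) overlapped WT. At day 7.5 it was higher in KO (235, 288 and 311) than in all WT libraries, and higher in HAse1.5 (124, 142 and 481) and HAse2.5 (221, 243 and 255) than in all untreated libraries (exact permutation p = 0.1 for each of the 3 comparisons). In these libraries treated and knockout cardioids held fewer MYH7 reads per MYH6 read at day 7.5, and none of the 3 comparisons can pass at this size. Ratios to MYL2 are not given, since only 2 libraries had more than 3 MYL2 counts.

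**Figure D3:**
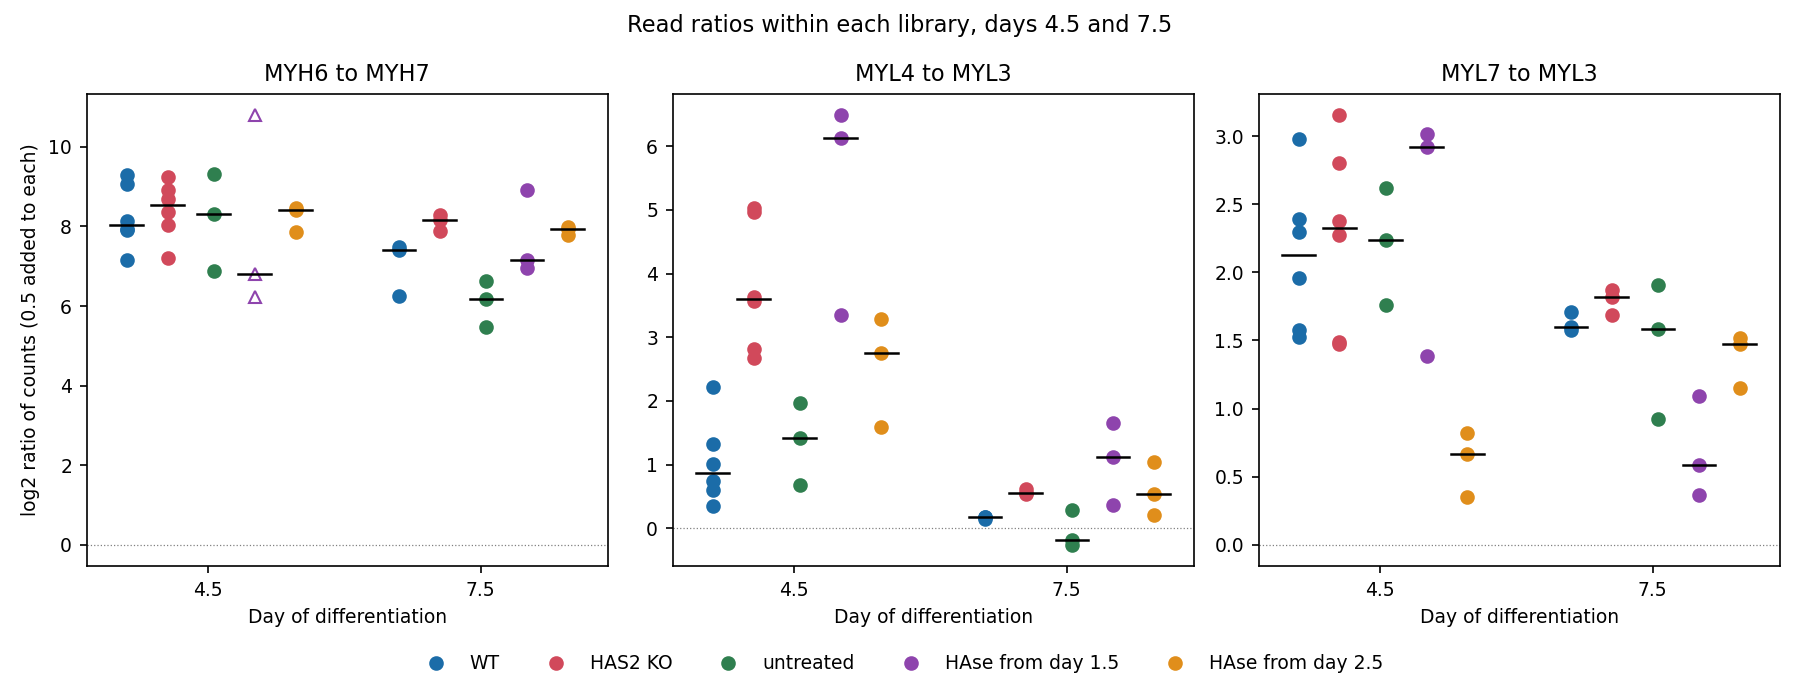
Log2 ratio of the counts of 2 members (0.5 added to each) in each library of days 4.5 and 7.5, by condition, with bars at group medians; open triangles mark HAse1.5 libraries of day 4.5 whose MYH7 count is at or under the floor. For MYL4 to MYL3 the KO libraries of day 4.5 (2.67 to 5.03) lie above the WT libraries (0.35 to 2.22), and all groups come within -0.26 to 1.65 at day 7.5. The HAse1.5 libraries of day 4.5 had only 3 to 10 MYL3 counts.

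The members were also set against TNNT2, to compare thick-filament genes with a thin-filament gene in the same library. At day 4.5 WT libraries had 48.3 to 114 MYL7 reads per 100 TNNT2 reads (median 76.7) and KO libraries 4.79 to 18.6 (median 10.7). MYL3 had 6.12 to 28.0 in WT and 0.657 to 6.64 in KO, and MYBPC3 14.4 to 24.4 in WT and 8.96 to 14.2 in KO. For MYL7 and MYBPC3 every KO library lay below every WT library, and for MYL3 the groups overlapped at their edges; TNNT2 itself was at -0.66 in KO (edgeR adjusted p = 0.256). MYH6 (115 to 170 in WT, 63.2 to 136 in KO), MYL4 (28.5 to 45.4 in WT, 21.4 to 42.3 in KO) and MYLK3 overlapped. In HAse1.5 at day 4.5, where TNNT2 was also lower (log2 fold change -1.98, edgeR adjusted p = 0.0277), MYL7 was at 2.43 to 7.19 reads against 49.8 to 98.1 in untreated libraries and MYH6 at 29.4 to 41.3 against 129 to 137. MYLK3 went the other way, with 17.7 to 101 reads per 100 TNNT2 reads against 9.06 to 11.5. At day 7.5 KO had 103 to 117 MYL7 reads and WT 125 to 195, while HAse1.5 had 20.3 to 47.3 and untreated 91.8 to 182. No test was run on these ratios.

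**Figure D4:**
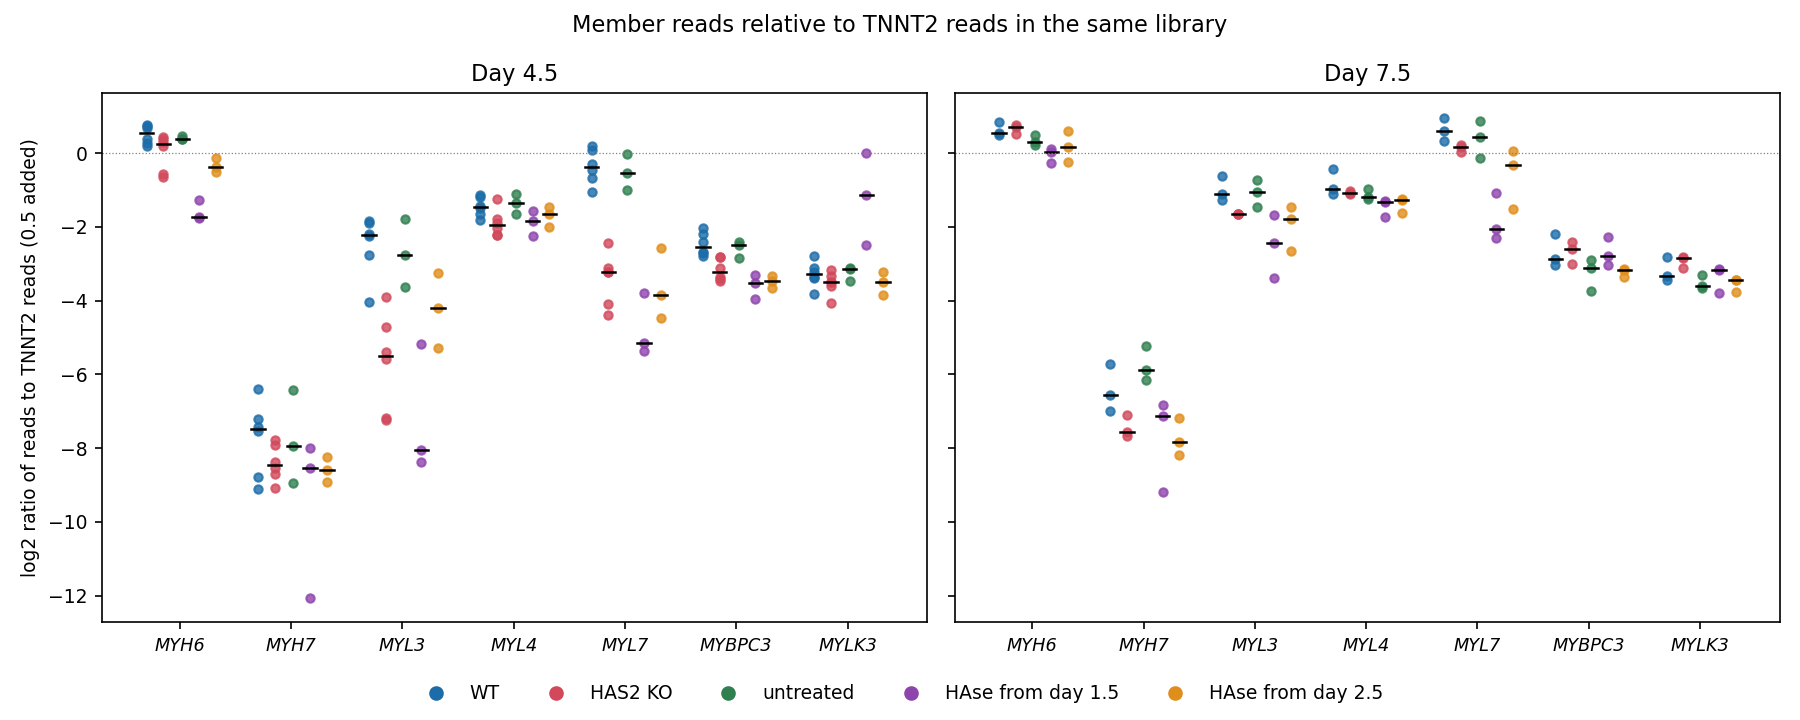
Log2 ratio of each member's reads to TNNT2 reads (0.5 added to each), 1 point per library and bars at group medians, at days 4.5 and 7.5. At day 4.5 MYL7 lies between -4.38 and -2.43 in KO and -5.36 and -3.80 in HAse1.5 and between -1.05 and 0.19 in WT, while MYL4 lies between -2.25 and -1.11 in every condition.

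Ordered by median level over the 16 groups, WT and untreated cardioids of day 7.5 stood highest for MYH7, MYL3, MYL4 and MYL7, and the day 1.5 and day 2.5 groups lowest for MYH6, MYH7, MYL4 and MYBPC3. Most neighbours overlapped. For MYL7 the day 7.5 groups of WT, untreated and KO came first. The breaks between neighbours were below KO of day 7.5, below HAse2.5 of day 4.5 and below WT of day 2.5. HAse1.5 of day 4.5 (median 16.8 CPM) stood next to last for MYL7, between KO and WT of day 1.5, and all 3 overlapped. For MYL3 the breaks were below WT of day 7.5 and below HAse1.5 of day 2.5. For MYL4 they were below HAse2.5 of day 4.5, below WT of day 2.5 and below HAse1.5 of day 2.5. MYH7 broke below WT of day 7.5 and below HAse2.5 of day 4.5, and MYH6 below HAse2.5 and below HAse1.5 of day 4.5. MYBPC3 was highest in KO of day 7.5 (median 938.5 CPM), which overlapped WT and untreated of the same day, and broke below untreated, HAse2.5 and HAse1.5 of day 4.5 and below KO and HAse1.5 of day 2.5. MYLK3 had the narrowest range from day 2.5 on, with medians from 139.3 CPM (HAse1.5, day 2.5) to 703.5 CPM (KO, day 7.5), and broke below HAse2.5 of days 7.5 and 4.5 and below HAse1.5 of day 2.5.

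Other genes of the sarcomere and of myosin were counted in the same comparisons. Of 20 partners of the thick and thin filaments and Z-disc, 7 were lower and 0 higher in KO at day 4.5 (median -1.16), where 2.6% of all genes were lower, among them the calsarcin MYOZ2 (-4.53), SMPX (-1.73), the Z-disc protein CSRP3 (-1.55) and alpha-actinin ACTN2 (-1.47). In HAse1.5 at day 4.5, 12 of 20 were lower (median -2.73), where 2.41% of all genes were, from the M-band protein MYOM1 (-5.03) and troponin C TNNC1 (-5.01) to titin TTN (-1.29) and the nebulin relative NEBL (-0.92), and at day 7.5 7 were lower (median -1.84), where 1.92% of all genes were. In KO at day 7.5 none was called. Of 19 other striated-muscle myosin genes only 4 were high enough to test, and MYH7B was lower in KO at day 4.5 (-2.46) and in HAse1.5 at days 4.5 (-4.30) and 7.5 (-2.53). Smooth-muscle and non-muscle myosin genes were also called: the light chain MYL9 (-1.74), the kinase MYLK (-1.43) and the heavy chain MYH9 (-0.67) in KO at day 4.5, 3 of 9, and MYL9 (-3.49), MYL6 (-1.15) and MYH9 (-0.90) in HAse1.5, 3 of 7. Among 8 genes of myosin folding and turnover, the ubiquitin ligases TRIM54 (-2.21) and TRIM63 (-2.19) and the methyltransferase SMYD1 (-1.52) were lower in KO at day 4.5, and TRIM55 (-1.85) in HAse1.5. All are edgeR calls at an adjusted p under 0.05, beside medians over all genes of -0.03 in KO at day 4.5 and 0.02 in HAse1.5 at days 4.5 and 7.5, and the shares of all genes just given apply to each of these lists.

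Chamber-type genes did not move as a block. Of 5 ventricular-type genes tested 4 were lower in KO at day 4.5, where 2.6% of all genes were. They were the members MYL3 and MYH7 and the transcription factors IRX4 (-2.76) and HAND1 (-1.41). Of 8 atrial-type genes, NPPA (-5.22) and the member MYL7 were lower, and the factors NR2F2 (2.45) and NR2F1 (2.87) higher. In HAse1.5 at day 4.5 NR2F2 was instead lower (-3.00), as were the members MYL7, MYH6 and MYL4, 4 of 7 tested, where 2.41% of all genes were. Of 11 cardiac transcription factors, only TBX5 (-2.06) was called lower in KO at day 2.5, and TBX5 (-3.74), MYOCD (-2.55) and GATA6 (-1.70) were in HAse1.5. The shares of all genes called lower at day 2.5 were 0.5% in KO and 0.894% in HAse1.5. Shares of all genes called higher are not given here. At day 4.5, HAND2 (0.89), MEF2C (0.96) and ISL1 (1.40) were higher in KO, and HAND2 (2.03) and ISL1 (2.07) higher and TBX5 (-1.66) lower in HAse1.5.

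Markers of other cell types were read beside these results, and their part in them was not tested. The shares of all genes called lower were 0.5% in KO at day 2.5 and 2.6% in KO at day 4.5. In HAse1.5 they were 2.41% at day 4.5 and 1.92% at day 7.5. In HAse2.5, 0.22% of genes were called in either direction at day 4.5, and 0.314% were lower at day 7.5. Shares of all genes called higher are not given here. In KO at day 2.5, 2 of 4 mesoderm markers were higher by edgeR (MESP1 2.49, adjusted p = 0.00225, and MIXL1 2.42, adjusted p = 0.000117). Their list summed to 94.7 to 153.6 CPM against 48.9 to 99.9 CPM in WT. The skeletal muscle marker PAX7 was also called higher (edgeR adjusted p = 0.0482). The cardiomyocyte marker TNNT2 was called lower there (-3.95, edgeR adjusted p = 0.00662), with at most 2 counts in any KO library. So were the thin-filament partners ACTC1 (-2.07) and TPM1 (-1.22). In KO at day 4.5, 3 of 4 smooth muscle markers were lower (TAGLN -3.56, ACTA2 -1.62, CNN1 -1.46), and their summed level was 134.6 to 620.6 CPM against 530.6 to 1689 CPM in WT. Only 1 of 6 cardiomyocyte markers was (ACTN2), with sums of 14845 to 35600 CPM in KO and 15876 to 43761 CPM in WT. TTN makes up much of these sums, and WT_R1 and WT_TU_R1 of day 4.5, both of block A, stood apart with 3459 and 3527 CPM of TTN, against 21834 to 34626 CPM in the other 4 WT libraries and 11277 to 26981 CPM in KO. In HAse1.5 at day 4.5, 3 of 6 cardiomyocyte markers (ACTN2, TNNT2 and TTN) and 3 of 3 smooth muscle markers tested were lower, with summed cardiomyocyte markers of 5136 to 18594 CPM against 18858 to 34537 CPM untreated. Pluripotency markers summed to 33.5 to 65.5 CPM in KO and 14.1 to 44.8 CPM in WT at day 4.5, with NANOG called higher (4.05) and at 0 in WT. In HAse1.5 at day 4.5 the epicardial marker WT1, at 0 in all treated libraries, was called lower (adjusted p = 0.0478; 1 of 1 tested of 5), as was the endoderm marker APOA1 (-2.52, adjusted p = 0.0155; 1 of 4 tested). Summed epicardial markers were 0.864 to 8.07 CPM against 6.14 to 54.2 CPM untreated, and endoderm markers 13.8 to 36.0 CPM against 43.1 to 160.4 CPM. At day 7.5 the endoderm marker AFP, with 3 counts or fewer in each treated library, was called lower in HAse1.5 (adjusted p = 0.00167) and in HAse2.5 (0.0127), and 2 of 3 smooth muscle markers tested were lower in HAse1.5 (TAGLN -3.65, CNN1 -1.80). In HAse2.5 at day 4.5 TAGLN was lower (-2.58). No endothelial or mesenchymal marker was called in KO or HAse1.5 at day 4.5, and the neural markers PAX6, SOX1 and TUBB3 were at 0 in every group of that day.

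For each tested member the 3 genes with the most similar course were found by Pearson's r of mean log2 CPM over the 16 groups, among 12566 genes. These values describe groups that share days and libraries. MYH6 was closest to TNNT2 (r = 0.996), the myosin chaperone UNC45B and MASP1, and MYBPC3 to MYH6 (0.991), LMOD1 and TRIM55. MYH7 was closest to KLHL31 (0.989), ABLIM1 and MYO18B, and MYL4 to NEXN (0.992), ENO3 and DPF3. MYL7 was closest to MYL3 (0.973), then to the smooth-muscle and non-muscle light chain MYL9 (0.969) and SYTL3. MYL3 was closest to troponin C TNNC1 (0.987), PPIC and the muscle creatine kinase CKM, and MYLK3 to CCDC141 (0.974), EPHX2 and EPB41L4A.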

How the data were processed

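The deposited table held raw counts of reads per gene for 65 libraries of a 3′ RNA-seq kit; per the submitters' processing notes it came from featureCounts (Subread 1.6.2) on the human build hg38, and the aligner is not given in the sources used here. Gene IDs were paired with symbols for 58207 of 58735 rows, and positions are those of GENCODE 29. A further 4 columns of the table were not used. The 8 members and the gene lists were chosen with earlier results of these data known. All 8 members are named, with the 2 highest and 2 lowest log2 fold changes among the called genes of each list and the 3 most similar genes of each member; TNNT2 and HAS2 are context.

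Each arm was fitted with edgeR 4.0.16 (R 4.3.3): filterByExpr with a minimum count of 10, TMM scaling, 1 mean per group, robust quasi-likelihood test, Benjamini-Hochberg adjustment over all genes, threshold 0.05. Positive KO-against-WT values mean higher in KO. DESeq2 1.42.0 and the other settings were alternatives, and the leave-out of block A and block C alone were added after seeing the data. The fit was checked on simulated data. Fold bounds use a floor of 3 counts per library. Groups are called apart where their libraries do not overlap. The share of all genes apart was not counted in any comparison, so being apart is a description and not a test. Total counts were 831062 to 3574843 per library. Replicate numbers of the enzyme arm name a line present in every group, so they pair the samples; 15 of 21 same-line pairs of deviations had r over 0.1 (lowest -0.0989). Genotype libraries share blocks of library numbers (A 10, B 11 and C 20 libraries), which are not stated to be batches; 26 of 37 same-block pairs had r over 0.1.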

Additional observations from a re-analysis of the deposited data

Results flagged for a closer look

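Of 38 sets of member values or ratios in groups of 4 to 10 libraries, 6 held a library far from the others of its group. Chance gives about 1 in 20 for independent sets. These sets share libraries and genes, so the 6 cannot be weighed against that rate. Of these 6, 4 were WT cl43_WT_UT at day 4.5, the lowest WT library for MYH6 (4602 CPM), MYL3 (214.2 CPM), MYL4 (999.3 CPM) and MYL7 (1693 CPM). Clone cl51_R1 was the lowest KO library for MYH7 at day 4.5 (4.05 CPM), and cl46_R1 the lowest for MYL7 at day 2.5 (9.57 CPM).

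The KO effect and the HAse1.5 effect at day 4.5 differed in the test of their difference, by 2.83 log2 units for MYH6 (edgeR adjusted p = 0.0331) and by 3.33 for MYL7 (edgeR adjusted p = 0.0274), with the enzyme effect the deeper in both. Fold differences had the same sign in both arms.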

How the results depend on the processing

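Of 1342 alternative values for 94 gene and comparison results, 1250 stayed on the same side of the threshold, 62 lost the threshold and 30 gained it. Where the main or the alternative value passed the threshold, 0 changed sign, and signs of uncalled pairs of values were not compared. Of the 555 alternative values of called results, 0 had the other sign. Of 35 called results, 20 passed in every alternative, MYL7 and MYL3 in KO at day 4.5 among them. Counts of called members moved as follows, and the cause was not tested. Without a filter on low counts, 1 was called for KO at day 2.5, 2 for HAse1.5 at day 2.5, and 6 and 2 for KO minus HAse1.5 at days 4.5 and 7.5. With block C alone, 1 and 3 were called for KO at days 2.5 and 4.5. In fits of only the groups compared, with fewer libraries to estimate the spread, the counts were 3 and 3 for KO at days 4.5 and 7.5, 0 for WT day 7.5 against 4.5, 2, 1 and 5 for HAse1.5 at days 2.5, 4.5 and 7.5, 0 for HAse2.5 at day 7.5, 0 for HAse1.5 against HAse2.5 at day 4.5, and 0 and 2 for KO minus HAse1.5 at days 4.5 and 7.5. DESeq2 called 4 for KO at day 2.5 and 3 for HAse1.5 at day 7.5 (MYLK3 added in each), 3 for HAse1.5 at day 2.5, 1 for HAse2.5 at day 4.5, 6 for HAse1.5 against HAse2.5 at day 4.5, and 1 and 2 for the change with day of the KO and HAse1.5 effects.

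With the replicate block (line or library-number block), 3 members were called for the change with day of the KO effect (MYL3 3.32, MYL7 3.05, MYBPC3 1.46) and 4 for KO minus HAse1.5 at day 4.5; the MYH6 call in KO at day 2.5 was lost (adjusted p = 0.076), and beyond these and the values in the report the block changed no call of a member. Leaving out each library in turn gave 1 to 3 calls for KO at day 2.5, 0 to 1 for WT day 7.5 against 4.5, HAse1.5 at day 2.5, HAse2.5 at days 4.5 and 7.5 and the KO change with day, 1 to 3 for HAse1.5 at day 7.5, 0 to 5 for HAse1.5 against HAse2.5 at day 4.5, 0 to 2 for the HAse1.5 change with day and 0 to 4 for KO minus HAse1.5 at day 4.5. For ratios it gave -1.43 to -0.81 (MYH6 to MYH7) and -1.01 to -0.64 (MYL4 to MYL3) for WT day 7.5 against 4.5, and -1.44 to -0.90 (MYL4 to MYL3) and -1.34 to -0.87 (MYL7 to MYL3) for KO at day 2.5. With 1 added to each count, MYL4 to MYL3 in KO at day 2.5 was -1.15 (exact permutation p = 0.0433). Depth limited MYL2, which was never tested, and its ratios, and MYH7 before day 4.5.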
